A study of Mus musculus with 17 samples.

Results

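The untreated tissue of the study comprised 6 RNA sequencing libraries, labelled as control replicates 1 to 6, of 17 libraries in all. They were chosen by their label alone. The labels give male C57BL/6 mice, brainstem as the tissue and the locus coeruleus as the region. The controls received no compound. The other groups, used here only for comparison, received vindeburnol (5 libraries) or its derivative VB-127 (6 libraries) at 20 mg/kg by oral gavage once a day for 5 days, with tissue taken 24 hours after treatment. None of the groups is labelled as gavaged with the vehicle, so compound and dosing procedure cannot be told apart in any difference between controls and treated libraries. Values are TPM, a transcript level scaled for transcript length and to the same total in every library, so read depth is unknown. Whether each library is a different animal is not stated, and errors therefore measure the spread between libraries.

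The locus coeruleus is a small pontine nucleus and the main source of noradrenaline in the brain. Its neurons make noradrenaline from dopamine with dopamine beta-hydroxylase (Dbh) and take it back up through the noradrenaline transporter (Slc6a2). Dopaminergic neurons of the midbrain instead carry the dopamine transporter Slc6a3, serotonergic neurons of the raphe carry the synthetic enzyme Tph2, and the Edinger-Westphal region of the midbrain holds neurons rich in the peptides Cartpt and Ucn. Bc1 is a short cytoplasmic RNA of rodent neurons, made by RNA polymerase III and involved in the control of translation at synapses.

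Bc1 was the most abundant transcript in all 6 controls, and its sequence is shown because it took the largest share of the TPM total. In GENCODE M21 (GRCm38) the gene has 1 exon of 168 bases at chr7:144914470-144914637 on the plus strand. Capitals mark the A-rich stretch, bases 77 to 136, in which 49 of 60 bases are A.
Bc1: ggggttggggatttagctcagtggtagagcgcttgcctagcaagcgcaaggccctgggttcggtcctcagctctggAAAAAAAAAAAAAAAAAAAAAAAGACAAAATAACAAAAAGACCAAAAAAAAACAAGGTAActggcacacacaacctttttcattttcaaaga
The libraries were prepared from poly(A) RNA, which is caught on oligo(dT) beads, and whether the stretch bears on the level of Bc1 was not tested. In replicates 1 to 6 Bc1 stood at 252711, 241731, 225024, 352875, 223920 and 175432 TPM. Replicate 4 was the highest and replicate 6 the lowest. As a share of the total this was 24.5% ± 5.90 (SD, n = 6), and the treated libraries, from 16.1% to 29.3%, overlapped the controls. Because TPM divides by length, a short RNA weighs heavily in it. Each value was also weighted by its annotated transcript length, which roughly approximates the share of reads. How well this holds for an RNA as short as Bc1 was not tested. The weighting put Bc1 at 4.33% ± 1.48 (SD, n = 6), from 2.77% to 7.14%.

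Transcripts of the mitochondrial genome followed Bc1. Together they took 11.5% ± 2.24 of the TPM total (SD, n = 6), from 8.59% in replicate 4 to 14.8% in replicate 6, and 11.1% ± 1.44 after weighting by length. Among the 30 genes with the highest mean TPM were 12 mitochondrial protein genes with 10.2% of the total and both mitochondrial ribosomal RNAs with 1.30%. The most abundant was mt-Co1, a subunit of cytochrome oxidase, at 19144, 16520, 18321, 11165, 14815 and 22398 TPM in replicates 1 to 6. Replicate 4 was again apart, here at the low end, and replicate 6 was highest.

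A further 6 of the top 30 were pseudogenes of mitochondrial genes, with 2.79% ± 0.521 of the total (SD, n = 6). They lie side by side on chromosome 1 in GENCODE M21 (GRCm38), from Gm10222 at chr1:24612407-24612700 to Gm29216 at chr1:24615706-24616197. Gm28661, the highest, was at 9176 ± 2353 TPM (SD, n = 6) and its transcript was identical over its whole length to part of mt-Co2. Gm28437, Atp6-ps and Gm10222 were likewise 100% identical to mt-Co3, mt-Atp6 and mt-Nd4l. Gm28438 differed from mt-Nd3 in 1 base, and Gm29216 from mt-Co1 in 1 base over the 483 of its 492 bases that aligned. Reads from the stretches that are identical in such pairs cannot be told apart by sequence. The split of TPM between each mitochondrial gene and its pseudogene is therefore uncertain.

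The remaining protein-coding genes of the top 30 were 8 in number and held 2.73% of the total. They were Fth1 (ferritin heavy chain, iron storage), Mbp (myelin basic protein), Apoe (lipid carrier made by astrocytes), Gapdh and Eef1a1 (glycolysis and translation), Cst3 (a secreted protease inhibitor), Ppia (a protein-folding enzyme) and Hspa8 (a constitutive chaperone). Fth1 led at 7100 ± 1618 TPM (SD, n = 6), followed by Mbp at 4869 ± 913 TPM and Apoe at 3896 ± 549 TPM. The intervals of Mbp and Apoe overlap. Within libraries Mbp was the higher in every control but replicate 1, where it was at 3469 TPM against 3656 TPM for Apoe. Gapdh, at 2969 ± 224 TPM, and Eef1a1, at 2180 ± 178 TPM, varied little. The remaining gene of the 30, the ribosomal RNA record Rn18s-rs5, varied more: it was at 5166, 7325, 2416, 1007, 1156 and 1618 TPM in replicates 1 to 6, with replicates 1 and 2 above the other 4.

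**Figure D1:**
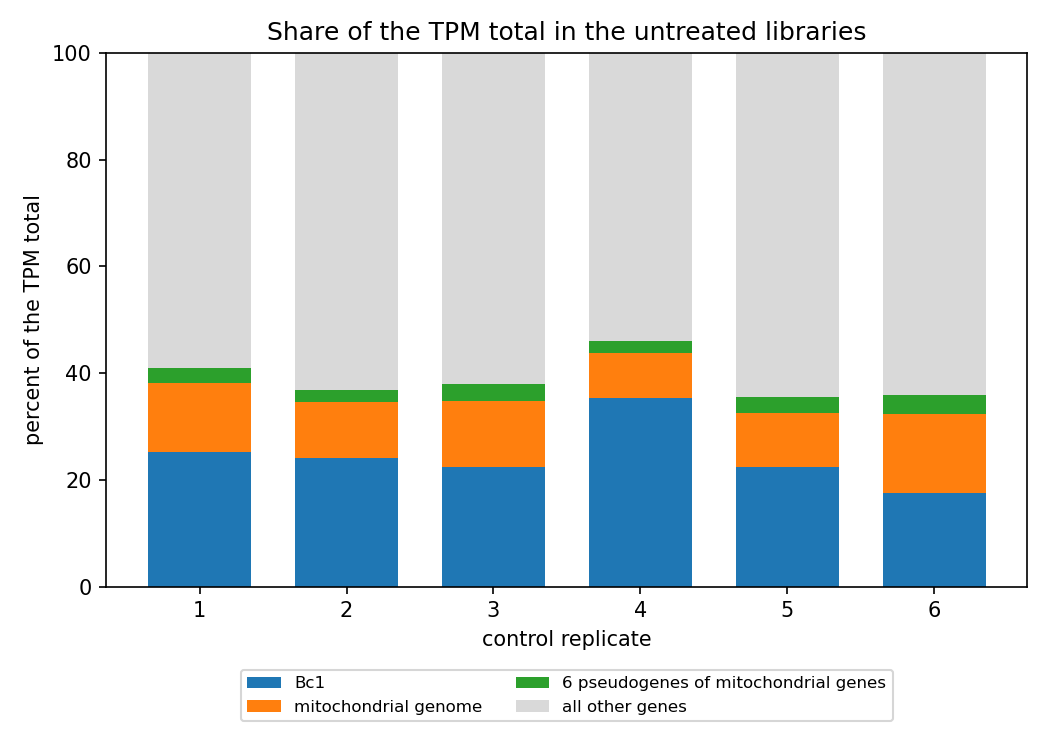
Stacked bars show the percent of the TPM total (vertical axis, 0 to 100) held by Bc1, the mitochondrial genome, the 6 pseudogenes of mitochondrial genes and all other genes in each of the 6 untreated libraries (horizontal axis). Bc1 runs from 17.5% in replicate 6 to 35.3% in replicate 4.

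The total was concentrated in few genes. The 10 highest genes of each library held 34.5% ± 4.59 (SD, n = 6), the 100 highest 49.5% ± 3.57 and the 1000 highest 72.9% ± 2.39. Of 78298 gene records, 13171 reached 1 TPM in all 6 controls, 5149 did so in some of them, and 59978 stayed under 1 TPM in every control. A mean of at least 1000 TPM was reached by 62 genes and of at least 100 TPM by 1150 genes. Most stable among protein-coding genes at or above a mean of 10 TPM was Cox7b, a cytochrome oxidase subunit, at 254, 256, 255, 248, 257 and 249 TPM in replicates 1 to 6.

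Cell classes were read from 33 lists of marker genes, with 276 of 278 genes found once in the files. Of these, 222 had a mean of at least 1 TPM in controls, against 15247 of the 78298 records, and 31 stayed under 1 TPM in all 6 libraries. In bulk tissue, fewer cells of a type and less RNA per cell cannot be told apart.

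Neuronal transcripts were abundant. All 10 pan-neuronal genes exceeded 1 TPM in every control, with a median of their means of 347 TPM. Snap25, a protein of the vesicle fusion machinery, was at 1103, 1391, 881, 280, 816 and 1236 TPM in replicates 1 to 6, and replicate 4 lay far below the other 5. Uchl1, an abundant neuronal ubiquitin hydrolase, did not share this low value and ran from 743 to 1047 TPM. The inhibitory markers Gad1 and Gad2, which make GABA, had means of 204 ± 46.4 and 83.9 ± 15.9 TPM (SD, n = 6), and the vesicular transporter Slc32a1 reached 139 TPM in replicate 6. The vesicular glutamate transporter of brainstem and thalamus, Slc17a6, was at 88.0 ± 25.4 TPM. Among interneuron markers and peptides, Pvalb was at 238 ± 25.8, Sst at 211 ± 47.5 and Penk at 106 ± 17.9 TPM. Of the 15 genes in the list of brainstem neuropeptides, 12 had a mean of at least 1 TPM. Only 2, the hypothalamic peptides Oxt and Hcrt, stayed under 1 TPM in all controls. The hypothalamic peptides Pomc, Avp and Pmch of the same list did not.

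Glial transcripts were equally plain. Each of the 10 astrocyte and 10 oligodendrocyte markers exceeded 1 TPM in every control. Of the astrocyte genes, Sparcl1 (a synapse-organising secreted protein) was at 1556 ± 262 TPM, Aldoc (a glycolytic enzyme) at 1331 ± 108 TPM and Glul (glutamine synthetase) at 1326 ± 175 TPM (SD, n = 6). Gfap, the astrocyte filament protein, was at 207 TPM in replicate 6 and from 113 to 145 TPM in the other 5 controls. Myelin genes besides Mbp included Mobp at 1324 ± 271 TPM. Precursors of oligodendrocytes and their lineage were represented by Olig2 at 30.7 ± 4.95 TPM and Cspg4, which pericytes share, at 6.96 ± 2.09 TPM. Microglial genes were all above 1 TPM, with the complement gene C1qa at 94.2 ± 15.3 TPM and the receptor P2ry12 at 12.9 ± 2.61 TPM.

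Vessel genes were at intermediate levels. Among endothelial markers, Ly6c1 was at 122 ± 29.4 TPM, the glucose transporter Slc2a1 at 79.3 ± 14.3 TPM and the tight-junction gene Cldn5 at 57.5 ± 13.6 TPM (SD, n = 6). Haemoglobin transcripts of red cells were high, Hba-a2 being at 557 ± 197 TPM and Hbb-bs at 501 ± 125 TPM. Genes of arterial smooth muscle split the libraries. Acta2, smooth muscle actin, was at 2.55, 3.45, 21.9, 27.5, 22.9 and 16.3 TPM in replicates 1 to 6, and Tagln, an actin-binding protein of the same cells, at 2.79, 2.93, 18.3, 18.9, 12.9 and 9.97 TPM. Replicates 1 and 2 were lowest in both genes with no overlap with the other 4, and Acta2 in all 11 treated libraries (14.7 to 26.7 TPM) also lay above them. Myh11 and Vtn followed the same split, at 1.07 and 0.852 against 3.66 to 4.86 TPM and at 38.7 and 39.2 against 76.8 to 112 TPM. Rgs5 and Abcc9 did not, with their lowest values, 16.5 and 0.769 TPM, in replicate 4. Vtn, Rgs5 and Abcc9 come from the same joint list of pericytes and smooth muscle, so the split is not read as one between these cell types. Ptgds, a prostaglandin synthase of meninges and oligodendrocytes, was at 1156, 875, 1853, 2705, 1098 and 1469 TPM, highest in replicate 4.

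Markers of several other classes were low or mixed. Of 8 lymphocyte genes, 7 stayed under 1 TPM in every control and Nkg7 reached 1.05 TPM in replicate 2 alone. Of 6 Schwann cell genes, 4 stayed under 1 TPM, among them Prx, with Pmp2 listed at 0 throughout, and the other 2 exceeded 1 TPM in every control. Of 8 choroid plexus genes, 3 had a mean of at least 1 TPM, led by Enpp2, which oligodendrocytes also make, at 158 ± 28.7 TPM (SD, n = 6), while Kcne2 and Aqp1 stayed under 1 TPM and Ttr reached 1.47 TPM in 1 library. Of 6 genes of macrophages at brain borders, Mrc1, Cd163 and Lyve1 stayed under 1 TPM, and Cd74, the invariant chain of antigen presentation, was at 7.95 ± 2.07 TPM. Of 8 genes of cerebellar granule cells, 5 had a mean of at least 1 TPM, led by the synaptic organiser Cbln1 at 29.8 ± 7.08 TPM, and Gabra6 stayed under 1 TPM. The motor neuron gene Mnx1 was listed at 0 in all 6. Ependymal genes were present at a modest level, with Foxj1, the master regulator of motile cilia, at 12.0 ± 2.72 TPM.

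**Figure D2:**
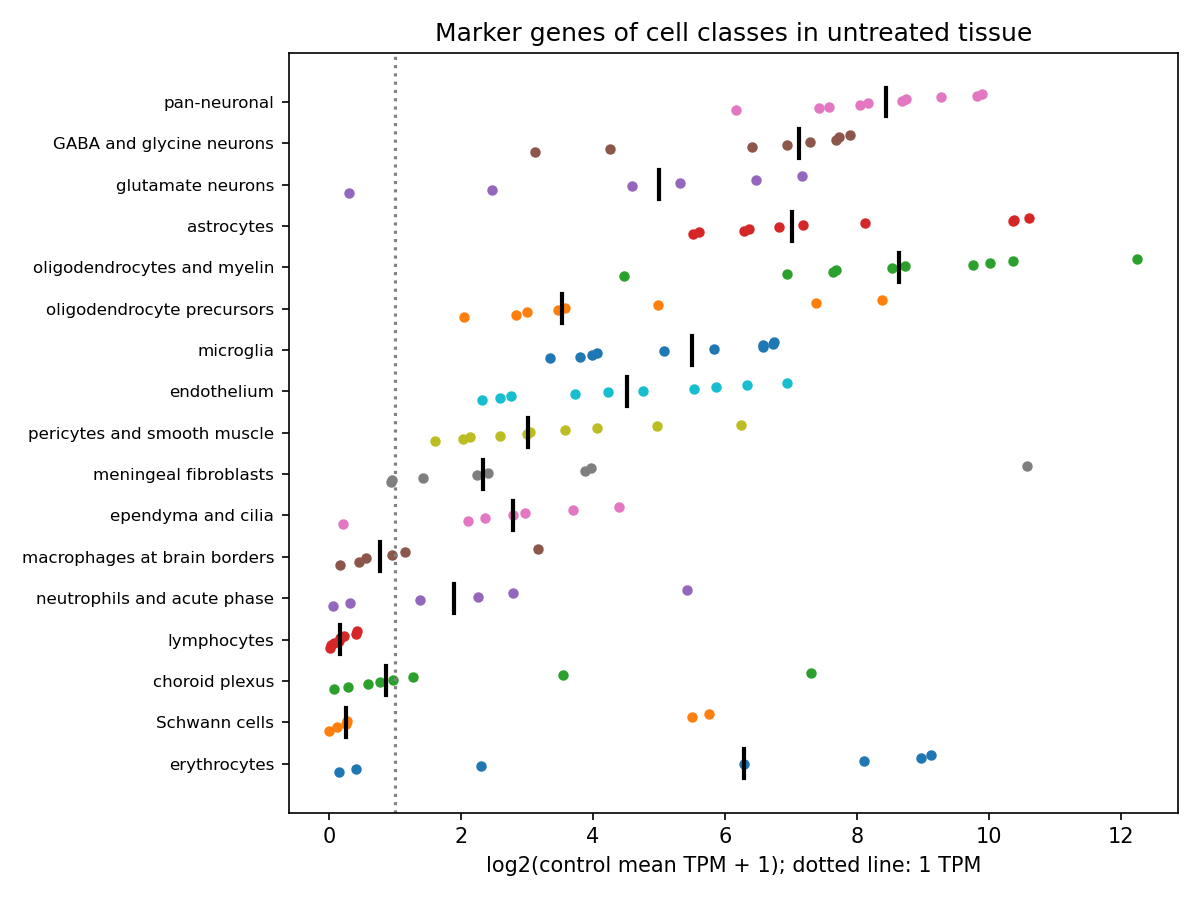
Each point is the mean TPM of a marker gene over the 6 controls, as log2(TPM + 1) on the horizontal axis, in 17 cell class lists (vertical axis), with a black bar at each list's median and a dotted line at 1 TPM. The medians of the myelin, pan-neuronal, GABA and glycine neuron, and astrocyte lists lie furthest right, and the medians of the lymphocyte, Schwann cell, border macrophage and choroid plexus lists lie left of the line.

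Against this background the labelled region was checked by its defining genes. Dbh was at 18.9, 0.290, 1.19, 2.57, 1.23 and 12.3 TPM in replicates 1 to 6, and Slc6a2 at 8.94, 0.0294, 0.569, 0.686, 0.300 and 4.15 TPM. Replicates 1 and 6 held both genes at clear levels and the other 4 libraries had Slc6a2 under 1 TPM. The transcription factor Phox2a, which specifies noradrenergic identity, reached at most 1.26 TPM and was likewise highest in replicates 1 and 6. Gal, a peptide of many noradrenergic neurons, was at 7.67 and 7.53 TPM in replicates 1 and 6 and from 1.99 to 3.46 TPM in the other 4. Dbh and Slc6a2 were therefore low or near absent in 4 of the 6 controls. Other members of the noradrenergic list did not all follow them. Tfap2b was at 5.44, 8.48, 5.18, 0.878, 3.27 and 1.10 TPM in replicates 1 to 6, highest in replicate 2. Pearson's r with Dbh over the 6 controls was 0.98 for Slc6a2 and 0.88 for Gal. It was 0.43 for Maoa, 0.10 for Slc18a2, -0.06 for Ddc, -0.34 for Tfap2b and -0.67 for Th.

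Several genes of the dopaminergic midbrain showed another split. Slc6a3 was at 1.04, 39.7, 67.6, 39.8, 73.8 and 41.4 TPM in replicates 1 to 6, so replicate 1 lay far below the other 5. Th, the enzyme that makes the dopamine precursor in both dopaminergic and noradrenergic neurons, was at 17.8 TPM in replicate 1 and from 63.8 to 117 TPM elsewhere. Pitx3 and Foxa2, transcription factors of midbrain dopamine neurons, were also lowest in replicate 1, at 0.137 and 0.258 TPM against at least 1.54 and 1.81 TPM. Ret, a growth factor receptor of these neurons, was at 11.3 TPM in replicate 1 and from 21.6 to 38.5 TPM in the others. Ddc and Slc18a2, used by all monoamine neurons, showed no such gap, at 75.8 and 26.0 TPM in replicate 1 against 75.4 and 22.4 TPM in replicate 2. Other members of the dopaminergic list followed Slc6a3 less closely than Th and Ret. Pearson's r with Slc6a3 over the 6 controls was 0.98 for Th and 0.93 for Ret. It was 0.54 for Drd2, 0.64 for Aldh1a1, 0.43 for Nr4a2 and 0.32 for En1. Replicate 1 had Dbh with little Slc6a3, replicate 6 had both, and replicates 2 to 5 had Slc6a3 with little Dbh.

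The Edinger-Westphal peptides Cartpt and Ucn were lowest in the same library as Slc6a3. Cartpt was at 17.6, 214, 193, 131, 225 and 159 TPM in replicates 1 to 6. Ucn, urocortin, was listed at 0 in replicate 1 and was at 34.5, 22.4, 22.7, 38.2 and 22.8 TPM in replicates 2 to 6. In neither gene did replicate 1 overlap the other 5 controls. The 11 treated libraries ran from 166 to 301 TPM for Cartpt and from 23.8 to 42.0 TPM for Ucn, and replicate 1 lay far below both ranges. Replicates 4 and 6 also lay below the treated range for Cartpt, and replicates 3, 4 and 6 lay just below it for Ucn. Cck, a peptide of many other neurons as well, went otherwise, with its highest value, 126 TPM, in replicate 1.

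Of 8 serotonergic genes, all had a mean of at least 1 TPM and 7 reached 1 TPM in every control. Tph2 was at 77.7, 33.2, 58.4, 97.1, 91.0 and 129 TPM in replicates 1 to 6 and the serotonin transporter Slc6a4 at 45.4, 18.6, 36.5, 48.3, 44.3 and 63.6 TPM. Replicate 2 was lowest and replicate 6 highest in both. The lowest control in each gene lay well above the lowest treated library, at 1.08 TPM for Tph2 and 0.218 TPM for Slc6a4. Fev, the transcription factor of serotonergic neurons, was likewise lowest in replicate 2, at 4.23 TPM, and was highest in replicate 4. Other members of the list followed Tph2 less closely. Pearson's r with Tph2 over the 6 controls was 0.98 for Slc6a4 and 0.84 for Fev. It was 0.43 for Lmx1b, 0.34 for Htr1a, 0.23 for Gata2 and -0.48 for Gata3. Cholinergic genes were lower. Chat, which makes acetylcholine, was at 6.90, 5.95, 4.16, 4.27, 4.88 and 9.71 TPM, and its vesicular transporter Slc18a3 ran from 2.08 TPM in replicate 2 to 17.7 TPM in replicate 6.

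Ordered by mean level, Cartpt came first (157 ± 76.5 TPM), then Tph2 (81.1 ± 33.2 TPM), Slc6a3 (43.9 ± 25.8 TPM) and Dbh (6.08 ± 7.70 TPM, all SD, n = 6). Tph2 and Slc6a3 overlap within 1 SD, as do Cartpt and Tph2, while Slc6a3 and Dbh do not. The genes were measured in the same libraries, so their order was also read within each. Cartpt exceeded Tph2, and Slc6a3 exceeded Dbh, in every control but replicate 1. The order differed in 3 libraries. In replicates 2 and 3 Slc6a3 exceeded Tph2, and in replicate 1 Tph2 came first, Dbh and Cartpt were close together and Slc6a3 came last.

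**Figure D3:**
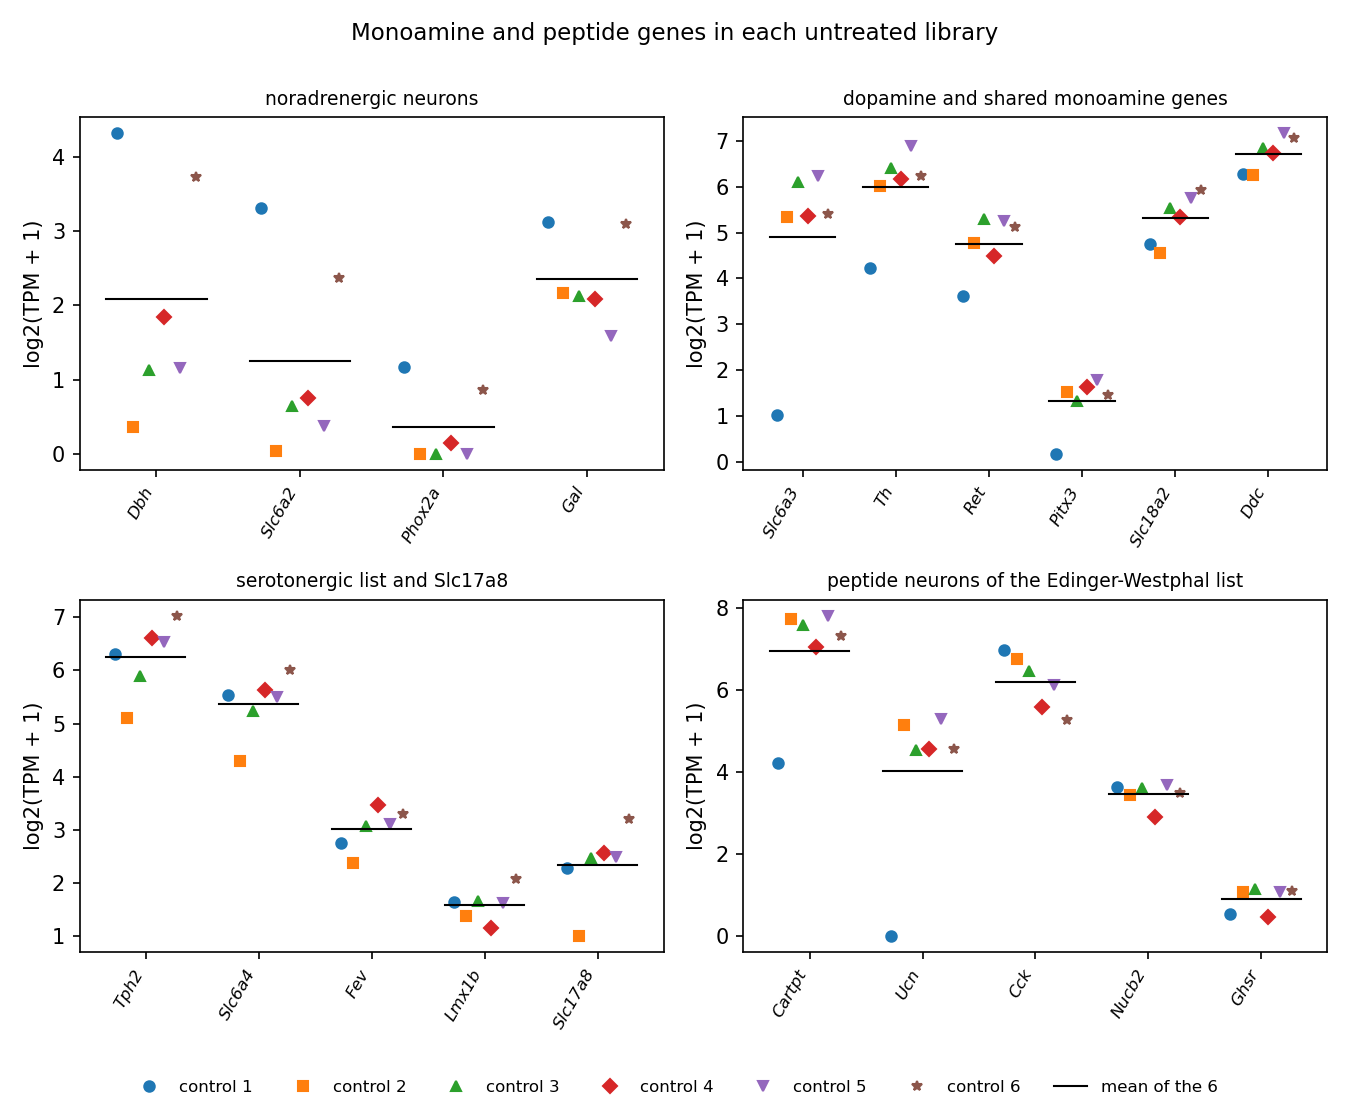
Points are the 6 controls, each with its own symbol, for genes of noradrenergic, dopaminergic, serotonergic and peptide neurons, as log2(TPM + 1) on the vertical axis, with a line at the mean. Replicates 1 and 6 lie highest for Dbh and Slc6a2, replicate 1 lies lowest for Slc6a3, Th, Cartpt and Ucn, and replicate 2 lies lowest for Tph2 and Slc6a4.

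Hox genes separated replicates 4 and 6 from the other controls. They are transcription factors that are switched on in order along the hindbrain and spinal cord. The sum over 39 Hox genes was 0.664, 0.679, 3.36, 17.4, 0.947 and 21.3 TPM in replicates 1 to 6. Treated libraries ran from 0.132 to 3.54 TPM, so replicates 4 and 6 lay above every other library of the study. The sum did not follow Dbh. It was lowest in replicate 1, which had the most Dbh (18.9 TPM), and highest in replicate 6, which came next in Dbh (12.3 TPM). Of the 15 genes of paralog groups 1 to 5, which are used in the hindbrain, 10 reached 1 TPM in some control and 12 had replicates 4 and 6 as their highest. Hoxb5 was listed at 0 in replicates 1, 2 and 5 and was at 0.0974, 3.60 and 3.01 TPM in replicates 3, 4 and 6. Hoxc4 was listed at 0 in the same 3 libraries and was at 0.278, 2.70 and 2.30 TPM in the others. In groups 9 to 13, used in the trunk spinal cord, 13 of 16 genes were listed at 0 in all 6 controls and none reached 1 TPM.

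Slc17a7, Slc6a5 and Lamp5, which were grouped after their values were seen, were highest in the same libraries, whereas Chat was not. Slc17a7, a vesicular glutamate transporter used by precerebellar nuclei and cortex, was at 4.63, 4.54, 13.3, 53.6, 2.06 and 59.8 TPM in replicates 1 to 6. Slc6a5, the glycine transporter of inhibitory hindbrain and spinal neurons, was at 2.70, 2.04, 3.75, 6.87, 3.50 and 27.3 TPM. Lamp5, a membrane protein of neuron subtypes, was at 47.9 and 95.4 TPM in replicates 4 and 6 and from 22.5 to 28.1 TPM in the others. In Slc17a7 and Lamp5 replicates 4 and 6 lay above every treated library, whose highest values were 17.7 and 36.2 TPM, and in Slc6a5 they lay above the highest of 4.84 TPM. The cortical marker Neurod6 was at 4.63 TPM in replicate 6 and at most 2.04 TPM in the others.

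Several genes named for their spread or weight in the components ran the other way. Tcf7l2, a transcription factor of thalamus and dorsal midbrain, was at 66.8, 58.5, 40.7, 9.57, 40.5 and 5.48 TPM in replicates 1 to 6. Otx2, which marks forebrain and midbrain up to the isthmus, was at 14.5, 18.4, 10.2, 4.27, 12.0 and 4.61 TPM, and Shox2, another factor of this region, at 27.3, 22.9, 14.5, 6.17, 16.7 and 6.15 TPM. Replicates 4 and 6 were lowest in all 3 genes and replicates 1 and 2 highest. Nrgn, a calmodulin-binding protein of forebrain neurons, was at 325, 169, 87.6, 30.3, 60.6 and 20.0 TPM, and the peptide Tac1 at 72.1, 81.1, 45.4, 31.5, 54.6 and 27.1 TPM, with the same ends. The list of 8 midbrain and isthmus position factors, which holds Otx2, did not as a whole: it summed to 37.6, 40.4, 38.0, 27.7, 41.0 and 36.5 TPM, with replicate 4 lowest and replicate 6 close to replicate 1. En1, a factor of the midbrain and hindbrain boundary, was at 13.2 ± 1.98 TPM (SD, n = 6), and Slc6a3, Foxa2, Cartpt and Ucn were lowest in replicate 1, not in replicates 4 and 6.

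**Figure D4:**
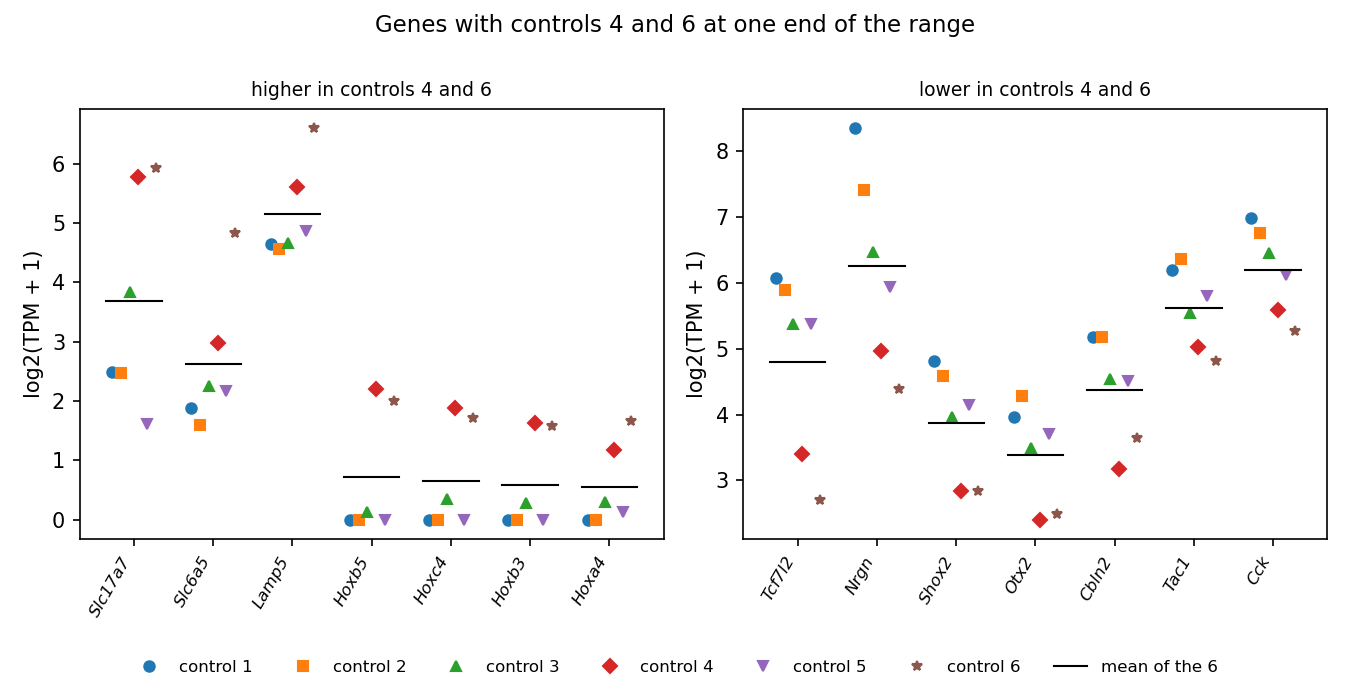
Points are the 6 controls, each with its own symbol, as log2(TPM + 1) on the vertical axis, for 7 genes in which replicates 4 and 6 were highest (left) and 7 in which they were lowest (right). Hoxb5, Hoxc4 and Hoxb3 lie at 0 in replicates 1, 2 and 5, and Tcf7l2 lies lowest in replicate 6.

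Spread between the controls was measured as the SD of log2(TPM + 1) for the 13248 genes with a mean of at least 2 TPM. The median SD was 0.25, and 181 genes had an SD of at least 1. This count depends on the settings: it was 351 with a pseudocount of 0.1, 306 with Bc1 and mitochondrial genes taken out of the total, and 53 at a mean of at least 10 TPM. Of these 181 genes, 130 had a value of 0 in some library, 97 carried a predicted or provisional name and 51 were protein-coding. Over the same measure 165 genes of the VB-127 group and 258 of the vindeburnol group had an SD of at least 1. Among protein-coding genes with a mean of at least 10 TPM, 263 of 7838 had an SD of at least 0.5 in controls, 47 in the VB-127 group and 200 in the vindeburnol group, which has 1 library fewer.

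The largest spreads belonged to near copies and very short RNAs. Rn7s1 was at 0, 306, 0, 92.0, 0 and 0 TPM in replicates 1 to 6, and its relative Rn7s2, another record of the signal recognition particle RNA, at 165, 0, 111, 0, 84.3 and 150 TPM. Each library with a value for one was listed at 0 for the other, and the SD of their sum was 0.68 against 3.86 and 3.61 for the records alone. Pabpc1l2a and Pabpc1l2b, a pair of X-linked poly(A)-binding protein genes, had SDs of 2.46 and 3.09 and a sum with 0.40. The 6 pseudogenes of the ribosomal protein gene Rpl35a had a sum with an SD of 0.14, although Rpl35a-ps6, Rpl35a-ps3, Rpl35a-ps4 and Rpl35a-ps2 each ranged from 0 to over 60 TPM. H2ac19 (a histone gene) had an SD of 2.23 and its sum with H2ac18 one of 0.21. Of the 23 most variable genes with a transcript in GENCODE M21, 8 had a copy at least 99% identical over at least 90% of their length. The mitochondrial transfer RNAs mt-Tv, mt-Tn, mt-Tw, mt-Ts1, mt-Tc, mt-Tp, mt-Te and mt-Ti, which are shorter still than Bc1, were each listed at 0 in at least 1 control.

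Among protein-coding genes with a mean of at least 10 TPM, the 8 most variable with no such copy were Lcn2, Ucn, Slc6a3, Slc17a7, Nrgn, Tcf7l2, Cartpt and Acta2, with SDs from 1.33 to 2.14. Lcn2, a siderophore-binding protein secreted in inflammation by neutrophils and by reactive astrocytes, was at 60.5, 1.43, 46.3, 6.35, 11.9 and 126 TPM in replicates 1 to 6. Replicates 1, 3, 5 and 6 lay above the highest treated library, at 7.00 TPM. S100a9, a neutrophil protein, was at 5.08, 1.60, 10.4, 1.38, 1.30 and 15.5 TPM, highest in the 3 libraries with the most Lcn2. The other genes of the neutrophil list did not all follow: Ngp stayed under 1 TPM in every control and Camp was listed at 0 in 5 of 6, and the list summed to between 3.88 and 158 TPM. The part of such cells in the Lcn2 values was not tested. Cdkn1a, a cell-cycle inhibitor, was at 26.6, 8.86, 15.3, 8.77, 13.2 and 28.2 TPM, also highest in replicates 1, 3 and 6. Npy, a peptide of inhibitory and noradrenergic neurons, was at 54.7, 19.7, 12.5, 5.14, 10.4 and 6.36 TPM, with replicate 1 far above the rest.

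Malat1, Neat1 and Meg3, long noncoding RNAs known to stay in the nucleus, and Snhg11, a host gene of small nucleolar RNAs that GENCODE M21 types as protein-coding, had the same pair of lowest libraries. Meg3 was at 260, 71.8, 727, 354, 539 and 617 TPM in replicates 1 to 6, Snhg11 at 237, 54.5, 533, 283, 410 and 409 TPM and Neat1 at 30.9 TPM in replicate 1, less in replicate 2 and from 64.3 to 126 TPM in the other 4. Replicate 2 was lowest and replicate 1 next lowest in each, and the lowest treated values, 440, 271 and 43.7 TPM, lay above both. Malat1, at 184, 96.9, 313, 340, 393 and 383 TPM, had the same pair, and above them the order of the libraries differed among these genes. Leng8 and Tia1, protein-coding genes with roles in RNA processing, and Wsb1, part of a ubiquitin ligase, were also lowest in replicate 2, at 8.35, 9.13 and 13.7 TPM against 61.9, 43.7 and 79.5 TPM in replicate 3. Rn18s-rs5 was highest in the same replicate 2.

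Principal components were computed from the 7838 protein-coding genes. The first held 46.3% of the variance and set replicate 4 (score 31.3) apart from replicate 6 (-15.4), with the other 4 between -9.90 and 2.53. The genes with the strongest weight on the side away from replicate 4 were Lcn2, Pnma8c, Tmem47, Rab9b, Gabrb2, Golm2, Kmt5a, Plcb4, Asah2 and Snap25. Tmem47, a membrane protein, was at 60.5, 59.0, 32.6, 7.60, 30.5 and 39.5 TPM, and Gabrb2, a GABA receptor subunit, at 40.1, 26.6, 35.5, 6.66, 18.4 and 29.4 TPM. On the side of replicate 4 were H2ac19, Pagr1a, Crip1, Acta2, Igf2, Slc17a7, Hba-a2, Tagln, Mus81 and Atp13a4. H2ac19 and Pagr1a each have a near-identical copy, H2ac18 and Gm42742. The summed pairs had SDs of 0.21 and 0.34, against 2.23 and 2.19 for H2ac19 and Pagr1a alone. The Pagr1a pair was highest in replicate 5, at 63.4 TPM against 55.5 TPM in replicate 4. The second component held 24.4% and set replicates 1 and 2 (13.2 and 16.6) apart from the other 4 (-12.8 to -4.47). Nrgn, Tcf7l2, Npy, Camk2a, Shox2, Trp53i11, Cbln2, Otx2, Hpca and Lars2 lay at the end of replicates 1 and 2, and Acta2, Slc6a3, Erdr1x, Slc17a7, Lcn2, Snhg11, Tagln, Ucn, Amy1 and Leng8 at the other. Erdr1x also has a near-identical copy, Erdr1y. Camk2a, a synaptic kinase of excitatory neurons, was at 97.2, 89.7, 54.2, 12.8, 35.6 and 33.1 TPM. Over all 13248 genes the first component held 35.3% and again had replicates 4 (43.5) and 6 (-29.5) at its ends.

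Replicate 4 also differed with transcript length. Genes at a mean of 10 TPM or more that have a length in GENCODE M21 were divided into 8 bins of 1008 to 1014 genes each. In replicate 4 the median deviation from the mean of the 6 controls was -0.15 on the log2(TPM + 1) scale in the shortest bin and -0.39 in the longest. In replicate 6 it was 0.04 and 0.21. The other 4 libraries differed between the same bins by -0.11 to 0.11. Replicate 4 had the highest Bc1 share as well, which in a fixed total lowers the share left to other genes, and how far length or Bc1 accounts for its position was not tested.

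**Figure D5:**
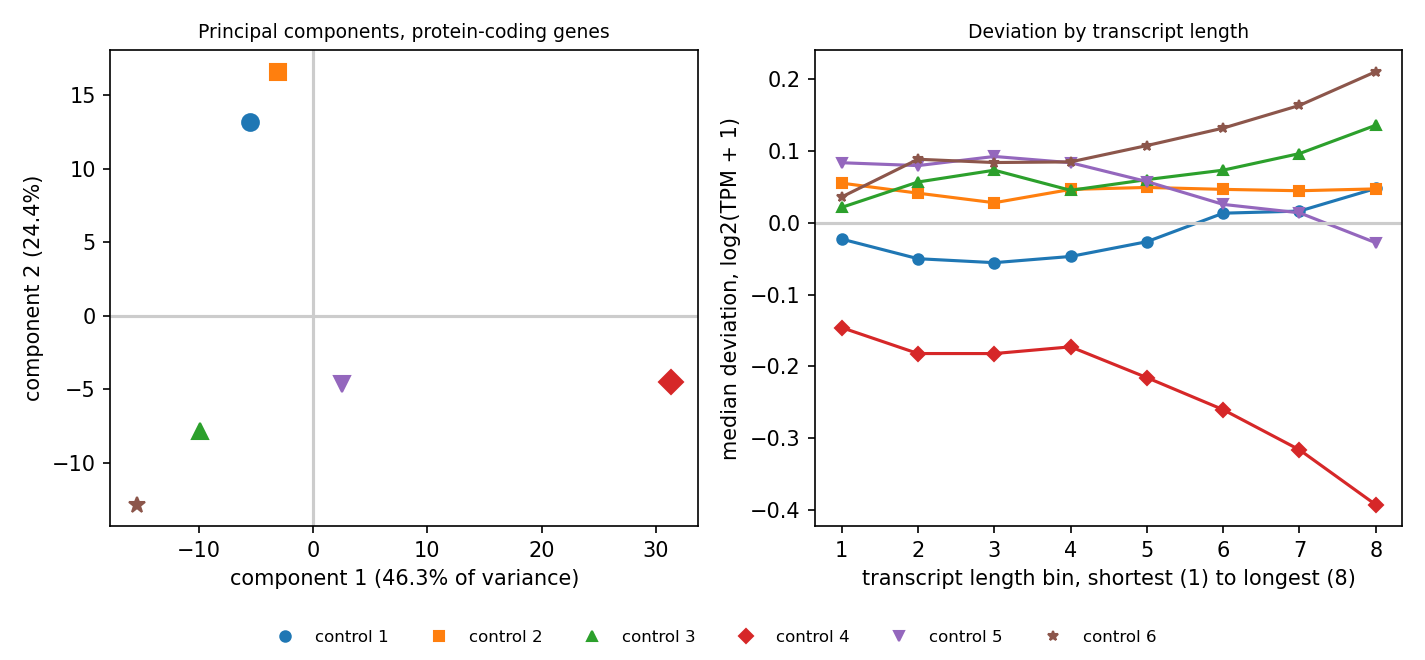
Left, scores of the 6 controls on the first and second principal components of 7838 protein-coding genes; right, the median deviation of each control from the gene mean, as log2(TPM + 1), in 8 bins of transcript length from shortest to longest. Replicate 4 lies alone at the right of the first component and goes from -0.15 in the shortest bin to -0.39 in the longest.

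Likeness to each of 5 anchor genes was ranked by Pearson's r of log2(TPM + 1) over the 6 controls, among 837 genes (838 for Bc1) whose mean was 2 TPM or more and SD 0.5 or more and whose name was not provisional. With 6 libraries and in places 1 or 2 that stand apart, r is a description of the ranking only. Nearest to Slc6a3 were C1ql2 (r = 0.99), Th, Cartpt, Ucn, Chrna6, Epb41l4aos, Pdlim1 and Foxa2 (r = 0.94), all lowest in replicate 1. C1ql2, a secreted synaptic protein, was at 4.66, 22.4, 27.8, 26.4, 36.1 and 27.4 TPM, and Chrna6, a nicotinic receptor subunit of dopamine neurons, at 3.69, 9.53, 11.7, 10.9, 15.7 and 9.40 TPM. Nearest to Cartpt were Ucn (r = 0.99), Slc6a3, Pdlim1, C1ql2, Foxa2, Th, Ndufb4b and Cd300c2, so 5 names stand in both rankings. Both rest on replicate 1, which is lowest in all of these genes.

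Nearest to Tph2 were Slc6a4 (r = 0.98), Mdn1, Rmnd1, Slc18a3, Hspa1b, Slc17a8, Notch4 and Hspb1 (r = 0.91). Slc17a8, a vesicular glutamate transporter that many serotonergic neurons carry, was at 3.86, 1.00, 4.54, 4.92, 4.64 and 8.25 TPM, with the same lowest and highest libraries as Tph2. Nearest to Dbh were Slc6a2 (r = 0.98), Snora34, Pabpc1l2b, Rps19-ps6, Tmem52, Rbbp8, Gal and Cdkn1a (r = 0.86). Pabpc1l2b was above 0 only in replicates 1 and 6, at 52.4 and 73.8 TPM, and is the member of a copy pair described above. Nearest to Bc1 were Islr (r = 0.94), Rpgrip1, mt-Tq, Mxra8, Clec3b, Rnase1, Yjefn3 and Cfap141 (r = 0.79), and 6 of these 8 were highest in replicate 4. Islr, a secreted protein of connective tissue cells, was at 3.18, 3.58, 4.18, 8.75, 3.39 and 1.85 TPM. For Bc1 only 1 gene reached r = 0.9 and 39 genes reached r = -0.9, against 14 and 3 for Slc6a3. In a fixed total a higher Bc1 share lowers the TPM of other genes, so negative r with Bc1 is partly built into the measure. The counts for Bc1 and Slc6a3 are therefore not comparable.

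Controls were then compared with the 11 treated libraries in a limma model over all 17 libraries, with controls set against the mean of both treated groups. Of 16153 genes tested, 0 were called at an adjusted p under 0.05, a share of 0%. At an unadjusted p under 0.05 there were 1933 genes (12%), of which 137 were higher in controls. The median difference over all genes was -0.10 on the log2(TPM + 1) scale. After median-ratio scaling it was -0.01, and 48.4% of the genes under that p were higher in controls in place of 7.09%.

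The gene nearest to a call was Actb, cytoplasmic actin, at 544 ± 52.0 TPM in controls (SD, n = 6) and 695 ± 35.5 TPM in treated libraries (SD, n = 11), with no overlap. Its difference was -0.36 (SE 0.06, limma adjusted p = 0.0522). Over the alternative runs its limma adjusted p ran from 0.0433 without control replicate 5, where Sbf1 also passed, to 0.423. The smallest limma adjusted p of any gene was 0.212 after median-ratio scaling. It was 0.165 with Bc1 and mitochondrial genes taken out of the total. Next among lower genes were Gm28119, Adgrb2, Trim28, Tmem91 and Sharpin, with limma adjusted p from 0.0834 to 0.250. Sharpin passed without VB-127 replicate 4 (limma adjusted p = 0.0371), and its limma adjusted p rose to 0.610 in another run. The 6 higher genes with the smallest p were Nps, Chat, Ly86, Sdf2l1, Lcn2 and mt-Nd3, each with a limma adjusted p of 0.264. Nps, a peptide of a few neurons beside the locus coeruleus, was at 1.87 ± 1.53 TPM in controls and 0.243 ± 0.455 TPM in treated libraries. Of the anchors, Dbh was higher on average in controls by 1.50 (95% interval 0.42 to 2.58, limma adjusted p = 0.340, above the treated mean in 5 of 6 controls), Tph2 by 1.13 (-0.61 to 2.86, adjusted p = 0.587) and Bc1 by 0.21 (-0.14 to 0.57, adjusted p = 0.622). Cartpt stood at -0.82 (-1.74 to 0.10, adjusted p = 0.462) and Slc6a3 at -0.51 (-1.96 to 0.94, adjusted p = 0.779). Without replicate 1 the Slc6a3 difference was 0.27 in place of -0.51, so its sign rests on that library. None of the 5 anchors differed between controls and treated libraries beyond the spread between libraries after adjustment.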

How the data were processed

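RNA sequencing of poly(A) RNA was done on 17 libraries, of which the 6 untreated controls are described here. Libraries were made with a strand-specific kit, per the labels' protocols. Reads were processed with STAR and Salmon on GRCm39 (mm39), per the submitters' processing notes, with no versions given in the sources used here. The deposited values are TPM for 78298 gene records in each library, as the authors made them. TPM keeps no depth, so no interval that needs counts is given.

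Levels are means ± SD of TPM, and spread is the SD of log2(TPM + 1), with a pseudocount of 1. A gene was called detected at 1 TPM. Principal components used centred log2 values. Controls were compared with treated libraries in limma 3.58.1 (R 4.3.3), with group as the only term, a filter of 1 TPM in at least 5 libraries, trend and robust moderation, and two-sided Benjamini-Hochberg adjusted p-values. The fit, SD and components were tested on simulated data. Lengths, gene types, coordinates and copies (BLAST 2.17.0) came from GENCODE M21 (GRCm38), which holds 51498 of the 78298 identifiers; the build differs from that of the deposited values.

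Named genes were the 30 highest by mean TPM, the 25 most variable, the 8 most like each anchor, the 10 at each end of the first components, members of the marker lists, and the 6 with the smallest p in each direction. Not every gene taken by the rule is printed, and results for some list members are not reported here. The members and lists were chosen with earlier results of these data known, and the length, copy and Hox summaries, the protein-coding subset, Abcc9 with Rgs5, and Cdkn1a, Leng8, Tia1 and Wsb1 were singled out after the values were seen. A second table that repeats the TPM of all libraries was not used.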

Additional observations from a re-analysis of the deposited data

Results flagged for a closer look

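A gap test was applied to 201 control measures that the text names, in groups of 6, with Dixon's 95% critical value for the gap between the extreme library and its nearest neighbour, divided by the range. Chance alone flags about 5% of groups that were not chosen by their values, and many of these genes were named because they vary most, so that share is no yardstick here. It marked 25 of them, or 12.4%, of which 6 lay in replicate 6 and 6 in replicate 4; genes are not independent either, and these counts are a description.

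In replicate 6, Slc6a5 (27.3 TPM against at most 6.87 in the other controls), Lamp5 (95.4 against 47.9), Neurod6 (4.63 against 2.04), Gfap (207 against 145), Gm28437 (8914 against 7054) and mt-Ti (24.0 against 0) stood above the other 5 libraries. In replicate 4, Glul was low (985 TPM against at least 1333), and Mus81 (24.8 against 15.3), Islr (8.75 against 4.18), Clec3b (6.85 against 3.33), mt-Tq (13.2 against 0) and Camp (0.262 against 0) were high. Replicate 1 stood out in Npy (54.7 TPM against at most 19.7), Sst (304 against 210) and Rps19-ps6 (11.5 against 5.49), and was low in Actb (444 against at least 531).

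Replicate 2 stood out in Rn7s1 (306 TPM against at most 92.0), Rpl35a-ps2 (64.8 against 0), mt-Tc (45.7 against 15.9) and Egr2 (0.296 against 0.0938). Replicate 3 did so in Rpl35a-ps4 (69.3 against 0), Ngp (0.968 against 0.227) and Mrc1 (0.905 against 0.502), and replicate 5 in Rpl35a-ps3 (85.7 against 0) and Sbf1 (99.9 against 71.3). The split of Dbh and Slc6a2, in which replicates 1 and 6 are both high, and the low Slc6a3 and Cartpt of replicate 1 are not marked by this test.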

How the results depend on the processing

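With Bc1 and mitochondrial genes taken out of the total, the 100 highest genes held 22.9% in place of 49.5%, 306 genes in place of 181 had an SD of at least 1, and the first component held 28.7% in place of 35.3%. Weighting by length, added after seeing the data, put Bc1 at 4.33% in place of 24.5%. A pseudocount of 0.1 gave 351 variable genes and 31.1% for the first component, and a mean of at least 10 TPM gave 53 genes and 40.6%. Protein-coding genes at that mean, added after seeing the data, gave 18 genes and 46.3%, and median-ratio scaling gave 29.9%. Leaving out each control in turn gave 38.3% to 44.2% over the genes with a mean of at least 2 TPM. With a library left out fewer components share the variance, so these values cannot be set directly against 35.3%. Ranked by Spearman's rho, 13 of the 40 genes named as most like the anchors remained among the 8 nearest, none of them for Cartpt; without Bc1 and mitochondrial genes in the total 39 remained. Detected genes and list members at 1 TPM stayed within 1.5 times of their values under each alternative run.

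The comparison with treated libraries called 0 genes under each scaling, filter and moderation run, and from 0 to 2 when a library was left out. It called 2 (Actb and Sbf1) without control replicate 5 and 1 (Sharpin) without VB-127 replicate 4. With a library left out the difference of Slc6a3 ran from -0.77 to 0.27, positive only without control replicate 1. With the replicate number as a block, 0 genes were called and 1598 had an unadjusted p under 0.05. Deviations of the 16 same-numbered pairs correlated from -0.20 to 0.11, with 1 pair over 0.1, so the numbers are not taken as a pairing. Depth is unknown, so values near 0 cannot be given a detection limit.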

Other observations

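Genes that respond to activity and stress were measured in the same controls. Of 10 immediate early genes, 8 had a mean of at least 1 TPM, with Fos at 9.26 ± 3.34 TPM and Egr1 at 8.97 ± 1.17 TPM (SD, n = 6), and Egr2 stayed under 1 TPM. All 10 genes induced by glucocorticoid hormones exceeded 1 TPM in every control, led by the metal-binding Mt1 at 950 ± 146 TPM and Mt2 at 605 ± 119 TPM. Fkbp5, a co-chaperone of the glucocorticoid receptor, was at 12.9 ± 3.50 TPM. Plin4, a lipid droplet protein, was at 14.8, 3.86, 14.6, 2.58, 6.12 and 16.8 TPM in replicates 1 to 6, so replicates 1, 3 and 6 were highest, as they were for Lcn2, S100a9 and Cdkn1a. The likeness was noticed after the values were seen and was not tested.

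Of the heat shock genes, Hspa8 and Hsp90aa1 were high, at 2049 ± 178 and 743 ± 142 TPM, and the inducible Hspa1a was at 11.6 ± 3.26 TPM. Hspb1, a small heat shock protein of glia and brainstem neurons, was at 20.2, 12.8, 24.9, 34.1, 32.1 and 34.9 TPM, and its lowest library was replicate 2, as for Tph2.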
